A study of Mus musculus with 25 samples.

Results

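The genes described here are 32 genes of the endoplasmic reticulum: its protein folding machinery and its stress signalling. They were chosen by symbol for their known function, and all 32 were found among the 14457 genes of the table. Of these, 17 act in folding: 11 chaperones with their partners, and 6 enzymes of disulfide bonds or proline bonds. A further 7 are stress sensors, transcription factors or their targets in stress signalling, 6 act in the removal of misfolded proteins, and 2 act in the transfer of new proteins into the compartment. Polyadenylated RNA of mouse atria was sequenced in 25 libraries from untreated mice 60 to 90 days old, to compare mice with basal and with reduced amounts of PAM. There were 12 wild-type libraries (7 of males, 5 of females) and 13 from PAM knockouts (5 of males, 8 of females). The sources used here do not name the strain, the deleted part of Pam or the cells in which it was deleted. In the library codes the first letter is the genotype (W or K) and the second the sex (M or F).

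Proteins that enter the secretory pathway fold in the endoplasmic reticulum, held by chaperones such as BiP and joined by disulfide bonds that protein disulfide isomerases form. When unfolded protein accumulates, the sensors PERK, IRE1 and ATF6 start the unfolded protein response, which slows translation and raises the transcription of chaperones, of folding enzymes and of degradation genes. Atrial myocytes store natriuretic peptides in secretory granules, and PAM, which amidates peptides, is a major membrane protein of these granules.

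The promoters of the folding genes are shown because many of these genes varied together over the libraries, and the endoplasmic reticulum stress element (ERSE) is the best known site for ATF6 and XBP1. RefSeq promoters of GRCm38.p6, from 250 bases before to 50 after a gene's start, were at hand for 28 of the 32 genes. Derl1, Hyou1, Atf6 and Manf had none, and Ero1l was matched under the symbol Ero1a. The ERSE, CCAAT followed after any 9 bases by CCACG, was searched for on both strands. It was in the promoters of 8 of the 28, namely Hspa5, Hsp90b1, Calr, Canx, Dnajc3, Creld2, Pdia6 and Syvn1. That is 28.6% of them, and 0.137% of all 27025 symbols with a promoter hold it (37 symbols). These shares are a description and not a test, since genes and element were both chosen for their known part in this response. Capitals mark the element below, each sequence runs along its gene, and each lies wholly before the RefSeq start.
Hspa5, chr2:34772020-34772048, plus strand: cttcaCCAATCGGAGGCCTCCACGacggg
Hsp90b1, chr10:86705618-86705676, minus strand: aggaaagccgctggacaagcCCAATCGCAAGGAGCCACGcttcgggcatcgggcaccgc
Hsp90b1, chr10:86705513-86705571, minus strand, element on the opposite strand: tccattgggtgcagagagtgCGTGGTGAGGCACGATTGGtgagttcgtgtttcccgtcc
Canx, chr11:50325780-50325838, minus strand: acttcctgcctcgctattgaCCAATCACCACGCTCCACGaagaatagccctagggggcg
Dnajc3, chr14:118937807-118937865, plus strand: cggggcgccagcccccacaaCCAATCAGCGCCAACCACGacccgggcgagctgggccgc
Pdia6, chr12:17266471-17266529, plus strand: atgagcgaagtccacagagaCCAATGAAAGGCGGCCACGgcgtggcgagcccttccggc
Syvn1, chr19:6046512-6046570, plus strand: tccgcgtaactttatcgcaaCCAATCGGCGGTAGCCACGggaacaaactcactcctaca

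The window of Hspa5 is short because it lies in an exon of a longer Hspa5 transcript in GENCODE M21, while the other windows overlap no exon of that annotation. The last letters of the element, CCACG, were in 22 of the 28 promoters and in 35.5% of all symbols, ERSE matches included. The letters TGACGTGG, of an XBP1 site, and TGATGNAAT, of an ATF4 site, were in 0 of the 28 and in 0.714% and 1.08% of all symbols. A second form of the element (ERSE-II), ATTGG followed after any 1 base by CCACG, was searched for after the other matches were seen. It was in 2 of the 28, Dnajb11 and Herpud1, and in 0.0444% of all symbols, which is likewise a description. The Herpud1 site lies 52 to 42 bases before the start.
Herpud1, chr8:94386357-94386407, plus strand: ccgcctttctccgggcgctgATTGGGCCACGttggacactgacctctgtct

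Per length, the 7 most abundant of the 32 were folding genes, while other folding genes ranked as low as Hyou1 in place 27. Levels are compared between genes as CPM, the reads of a gene scaled to a fixed total per library, per kb of exon. The mean and standard deviation (SD) are over the 25 libraries. The exon length takes all annotated exons of a gene together, alternative ones included. Hspa5, the gene of the chaperone BiP, came first at 206 ± 78.3. P4hb, a protein disulfide isomerase and subunit of prolyl 4-hydroxylase, was at 160 ± 30.6 and Hsp90b1, the gene of the chaperone GRP94, at 153 ± 42.2. Pdia3 and Calr, an isomerase and a calcium-binding chaperone that work together on glycoproteins, were at 129 ± 33.1 and 126 ± 31.98. Each of these 5 lay within the larger of both SDs of the next in the order. Herpud1, a degradation gene, followed in eighth place at 68.4 ± 26.4, ahead of the transcription factor genes Atf4 at 54.3 ± 18.04 and Xbp1 at 46.4 ± 8.93. Of the 3 sensor genes, Atf6 was at 14.98 ± 3.74, Eif2ak3 (PERK) at 2.58 ± 0.515 and Ern1 (IRE1) at 2.42 ± 0.871.

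**Figure D1:**
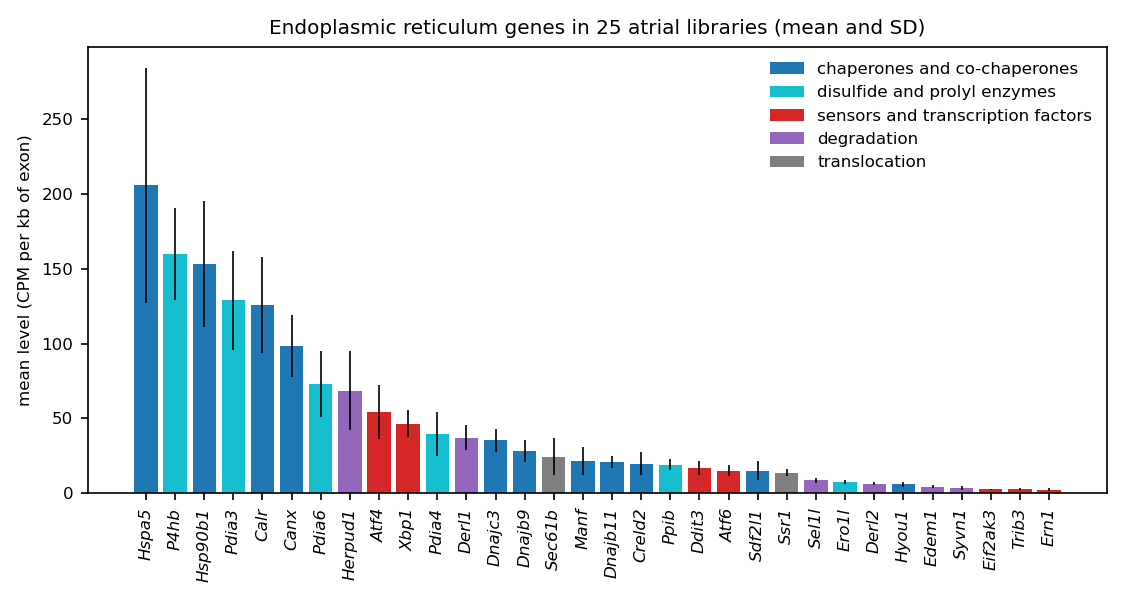
Mean level of each of the 32 genes over 25 libraries, in CPM per kb of exon on the vertical axis, with genes in order of level and bars coloured by role. Error bars are the SD over libraries. Hspa5 stands first at 206, and Eif2ak3, Trib3 and Ern1 stand last at 2.58, 2.53 and 2.42.

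Some libraries stood apart, and the results that rest on them are given with and without them. Depth ran from 2246887 to 8098602 reads with a median of 5385966, so 3 reads were worth 0.370 to 1.34 CPM, counting error only. Pam, the targeted gene, was at 295 to 520.3 CPM in the 13 knockout libraries and at 1409 to 6245 CPM in the 12 wild-type libraries, and it fell in every comparison by genotype (log2 -3.29 ± 0.24 over both sexes, limma adjusted p = 1.99e-09). The 2 least deep libraries were WF10 and KM01, in which mitochondrial genes gave 30.2% and 18.5% of the CPM. The atrial genes Myl7 and Nppa were high in all libraries, at 1127 to 6828 and 533 to 2981 CPM. The library names form 3 sets, named here after their words: LARA (names with LA or RA, 12 libraries), CGI (9 libraries) and MaleKOAtrium (4 libraries, all of knockout males). The sources used here do not say what the names mean. Bmp10, which adult mice transcribe mainly in the right atrium, was at 0.433 to 1.26 CPM in 4 libraries with LA names (WM1, WM2, WM3 and KF14). It was at 15.6 CPM in WF10, 46.5 in KM01, 58.3 in KF19 and 76.5 in KF16, and ran up to 7597 CPM in the others.

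Many folding genes were high in the 4 LA libraries lowest in Bmp10. The highest library was 1 of these 4 for 11 of the 17 folding genes (7.9% of all genes). WM1, WM2, WM3 and KF14 were the 4 highest of the 25 libraries for 3 of the 17 folding genes, Hspa5, Hsp90b1 and Pdia3 (0.242% of all genes), and made up at least 3 of the 4 highest for 9 (2.93% of all genes). The exceptions included Dnajb9, at 47.5 to 65.1 CPM in WM1, WM2 and WM3 and at a median of 69.2 CPM over the 25 libraries. Hspa5 was at 1612 CPM in WM3, 1367 in WM2, 1350.2 in KF14 and 1258 in WM1. In the other 21 libraries it was at 332 to 1199 CPM. The other LA libraries, KF16 and KF17, were at 584 and 758 CPM of Hspa5, and at 76.5 and 4811 CPM of Bmp10. KM01 and WF10, also low in Bmp10, were at 332 and 521 CPM of Hspa5. The CGI knockout females, with KF19 among them, were at 533 to 715 CPM of Hspa5. Summed atrial myocyte markers (5 of 5 measured) were at 14982 to 19604 CPM in WM1, WM2, WM3 and KF14. In the other 21 libraries they were at 3451 to 16564 CPM. WM3 was the highest library for 9 of the 32 genes, while 7.9% of all genes had their highest value in any of the 4.

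WF10 was the lowest library for 22 of the 32, and still for 11 after median-ratio scaling, which corrects for the share taken by a few abundant genes. KM01 was the highest for 5, among them Atf4, Ppib and Sec61b, and the lowest for 2, Hspa5 and Canx. After median-ratio scaling KM01 was the highest for 9 and the lowest for 6. The scaling factor, a median over genes of the ratio to the gene's geometric mean, was 0.632 in WF10 and 0.840 in KM01. Low values there were thus not particular to these genes, and the shares of all genes highest or lowest there are not given here. In bulk tissue, fewer cells of a type and less RNA per cell cannot be told apart. The part of tissue makeup in these differences was not tested.

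**Figure D2:**
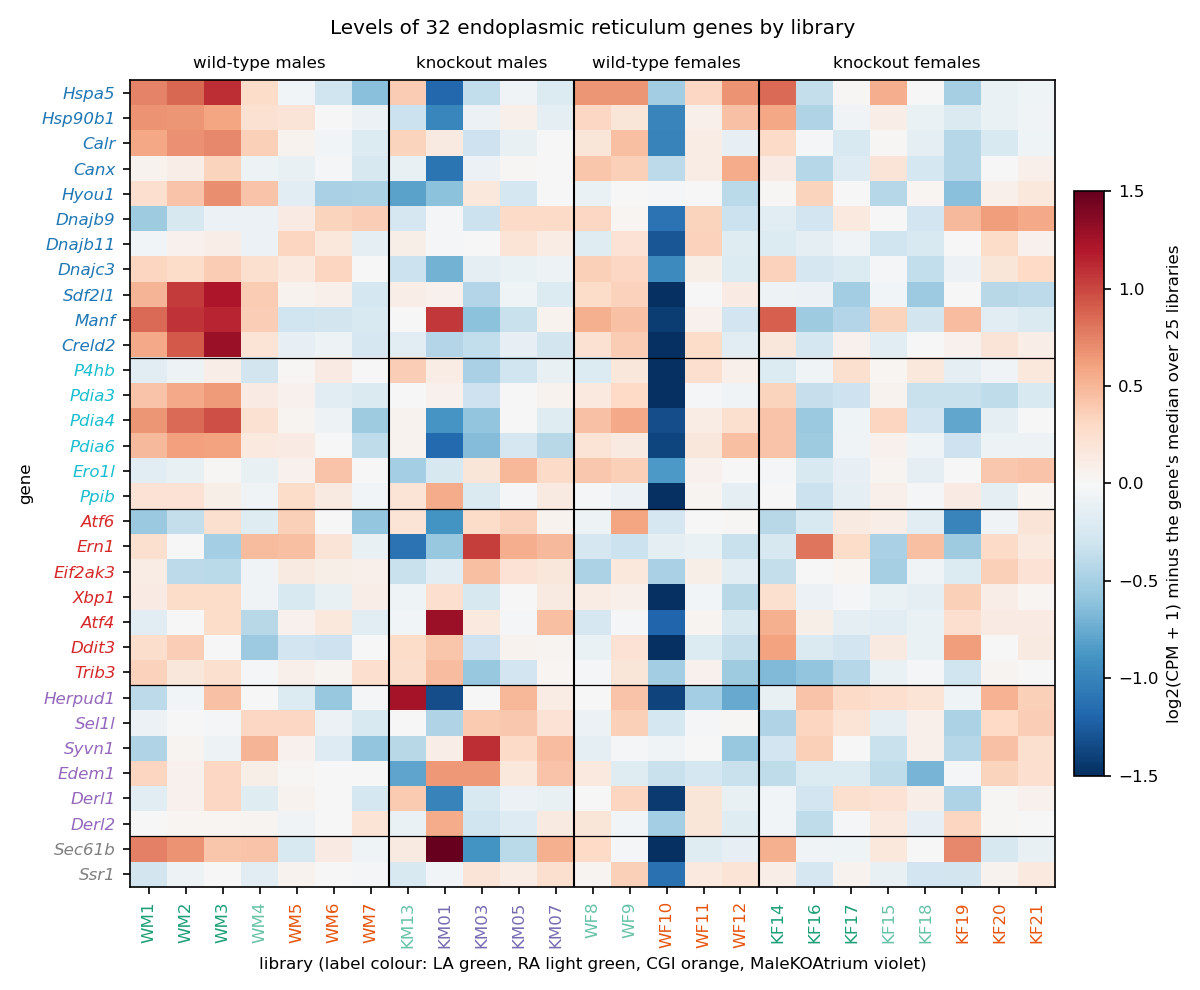
Level of each gene (rows, ordered by role) in each library (columns, ordered by group and library name) as log2(CPM + 1) minus the gene's median over 25 libraries, red above and blue below the median, colours ending at 1.5. Of the 17 chaperone and enzyme rows 13 are red in each of WM1, WM2 and WM3, as would be 16.2% of all genes. Most rows are blue in WF10, the lowest library for 22 of the 32 genes.

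Within the group, 1 block of folding genes varied together over the libraries, and pairs with stress signalling genes were more mixed. Spearman's rho over the 25 libraries was 0.951 for Hspa5 with Pdia4, 0.938 for Pdia4 with Pdia6, 0.934 for Hspa5 with Pdia6 and 0.905 for Hsp90b1 with Pdia6. Pdia4 and Pdia6 are disulfide isomerases that bind BiP and GRP94. Calr and Pdia3 formed another pair at 0.896. These correlations are a description, since the libraries share depth, tissue pieces and name sets. The median was 0.356 over the 136 pairs of folding genes, 0.122 over the 119 pairs of a folding and a stress signalling gene, and 0.184 over all 496 pairs. Of the folding pairs, 19 were below 0, the lowest at -0.284. Taken as deviations from the mean of each group within each set (24 libraries), Hspa5 and Pdia4 were again at 0.951 and the folding pairs at a median of 0.470. The 34 pairs of a folding and a translocation gene had a median of 0.424 on this scale and 0.222 over the levels. The pairs of a folding and a stress signalling gene had a median of 0.210 on this scale. Over the levels they ran from -0.539, for Manf, a secreted stress-induced factor, with Ern1, to 0.795, for Manf with Xbp1.

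Between genotypes, none of the 32 genes passed the test. Genes were compared as log2(CPM + 1) with limma, and differences are knockout minus wild type with the standard error (SE). A gene was called where its p, adjusted by Benjamini and Hochberg's method over all 14457 genes, was under 0.05. Over both sexes 0 of the 32 were called (0.00692% of all genes, Pam alone), in females 0 (0.0138%) and in males 0 (0.277%). At an unadjusted p under 0.05 there were 2 of 32 over both sexes (6.25%, against 3.68% of all genes), 1 in females (3.12%, against 3.94%) and 6 in males (18.8%, against 11.8%). The first 2, Herpud1 and Ddit3, were higher in knockouts (2.57% of all genes were higher at this level), as was Herpud1 in females (2.97%), and all 6 in males were lower (6.47%). Without WF10 the 32 genes had 7 at this level in females (3.89% of all genes), 12 differences above 0 and 20 below. On simulated counts of these libraries the procedure recovered 80% of 2-fold and 25% of 1.5-fold changes over both sexes. It recovered 53% and 9% in females, and 48% and 7% in males, so changes near 1.5-fold were mostly not detectable. The fit over both sexes has a term for the name set, so the 4 MaleKOAtrium libraries do not bear on the genotype there, and in males they stand for 4 of the 5 knockouts.

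The chaperones had the lowest median difference of the 5 roles in males. Of the 11, 9 were below 0 in knockout males with a median of -0.40, while the median of all genes was 0.05. In females 5 of the 11 were below 0 with a median of 0.02, against 0.11 for all genes. Without WF10 the median of all 32 genes in females was -0.12 against -0.01 for all genes. With median-ratio scaling the median of all 32 genes went from 0.06 to -0.04 in females and from -0.04 to -0.08 in males, and that of all genes from 0.11 to 0.01 in females. Without the LA libraries the 32 genes had a median of -0.03 in males, as had all genes. There 1 of the 32 had an unadjusted p under 0.05, against 4.66% of all genes. Summed markers of the mesothelium (6 of 6 measured) were at 716 to 1108 CPM in wild-type and 153 to 750.1 CPM in knockout males, and those of plasma and B cells (7 of 7) at 15.1 to 43.5 and 36.1 to 70.9 CPM. Erythroid markers (6 of 6) were at 382 to 2942 and 2058 to 5481 CPM, and cycling markers (5 of 5) at 12.5 to 66.3 and 24.5 to 320.3 CPM. Their part in the male differences was not tested.

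Hspa5 was at 487 CPM in the lowest, 905 in the median and 1612 in the highest wild-type male. In knockout males it was at 976 CPM in KM13, 332 in KM01, 581 in KM03, 723 in KM05 and 652 in KM07. The genotypes overlapped in males, and 4 of the 5 knockouts lay below the wild-type median. In wild-type females Hspa5 was at 1186 CPM in WF8, 1189 in WF9, 521 in WF10, 928 in WF11 and 1199 in WF12, and in knockout females at 533 (lowest), 732 (median) and 1350.2 (highest). Here too the genotypes overlapped, with WF10 below and KF14 above the rest of their groups. The log2 difference was -0.40 ± 0.21 over both sexes (limma adjusted p = 0.981), -0.41 ± 0.23 in females (0.935) and -0.57 ± 0.33 in males (0.520). It shrank to -0.11 in males without the LA libraries and grew to -0.57 in females without WF10.

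Dnajc3, a co-chaperone of BiP also known as p58IPK that restrains PERK, was the 1 gene of the 32 whose male groups did not overlap (1.26% of all genes were lower with no overlap). It was at 178, 216 and 231 CPM (lowest, median, highest) in wild-type males, and at 142 CPM in KM13, 108 in KM01, 161 in KM03, 166 in KM05 and 168 in KM07. Every knockout male lay below every wild-type male. In males its log2 difference was -0.51 ± 0.15 and did not pass (unadjusted p = 0.00393, limma adjusted p = 0.210). In females the groups overlapped, with WF8 at 227, WF9 at 221, WF10 at 90.8, WF11 at 188 and WF12 at 154 CPM against 138 to 226 CPM in knockouts. WF10 lay below the knockouts and WF8 just above them, and the difference was 0.04 ± 0.22. DESeq2 on recovered reads called Dnajc3 in males (adjusted p = 0.00162), while over all alternatives its adjusted p ran from 0.00162 to 0.999.

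Hsp90b1 was at 549, 684 and 933 CPM (lowest, median, highest) in wild-type males, and at 468 CPM in KM13, 297 in KM01, 548 in KM03, 615 in KM05 and 531 in KM07. Only KM05 reached into the range of the wild-type males. Knockout and wild-type males differed by -0.61 ± 0.22 (limma adjusted p = 0.291, 0.0449 to 0.999 over the alternatives), and -0.37 without the LA libraries. In wild-type females it was at 724 CPM in WF8, 664 in WF9, 293 in WF10, 616 in WF11 and 793 in WF12, and in knockout females at 428, 554 and 871 CPM, a difference of -0.10 ± 0.23. WF10 lay far below the other wild-type females and KF14 set the top of the knockouts.

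Canx, the gene of the membrane chaperone calnexin, had the smallest p of the members lower in knockout females. It was at 617 CPM in WF8, 596 in WF9, 354 in WF10, 503 in WF11 and 682 in WF12, and at 345, 436 and 531 CPM (lowest, median, highest) in knockout females. The groups overlapped, with WF10 and WF11 inside the knockout range. On the log2 scale the difference was -0.35 ± 0.19 in females (limma adjusted p = 0.935), -0.48 without WF10, and -0.32 ± 0.17 over both sexes (0.981). In males the ranges were 394 to 584 CPM in wild type and 217 to 469 CPM in knockouts, with the low end set by KM01, and the difference was -0.26 ± 0.20.

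Among the other chaperones, Creld2 and Sdf2l1, cofactors that stress induces, were lower in knockout males at an unadjusted p under 0.05 (log2 -0.64 ± 0.25 and -0.54 ± 0.25, limma adjusted p = 0.336 and 0.412). Creld2 was at 18.04 to 22.7 CPM in the 5 knockout males and at 20.8 to 62.5 CPM in wild-type males. The upper part of that range was WM1, WM2 and WM3, at 37.3 to 62.5 CPM. Calr, Hyou1 and Manf were at -0.30 ± 0.20, -0.40 ± 0.25 and -0.35 ± 0.33 in males. The 2 J-domain partners Dnajb9 and Dnajb11 were at 0.02 ± 0.19 and 0.03 ± 0.13 in males and at 0.33 ± 0.25 and 0.15 ± 0.23 in females.

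**Figure D3:**
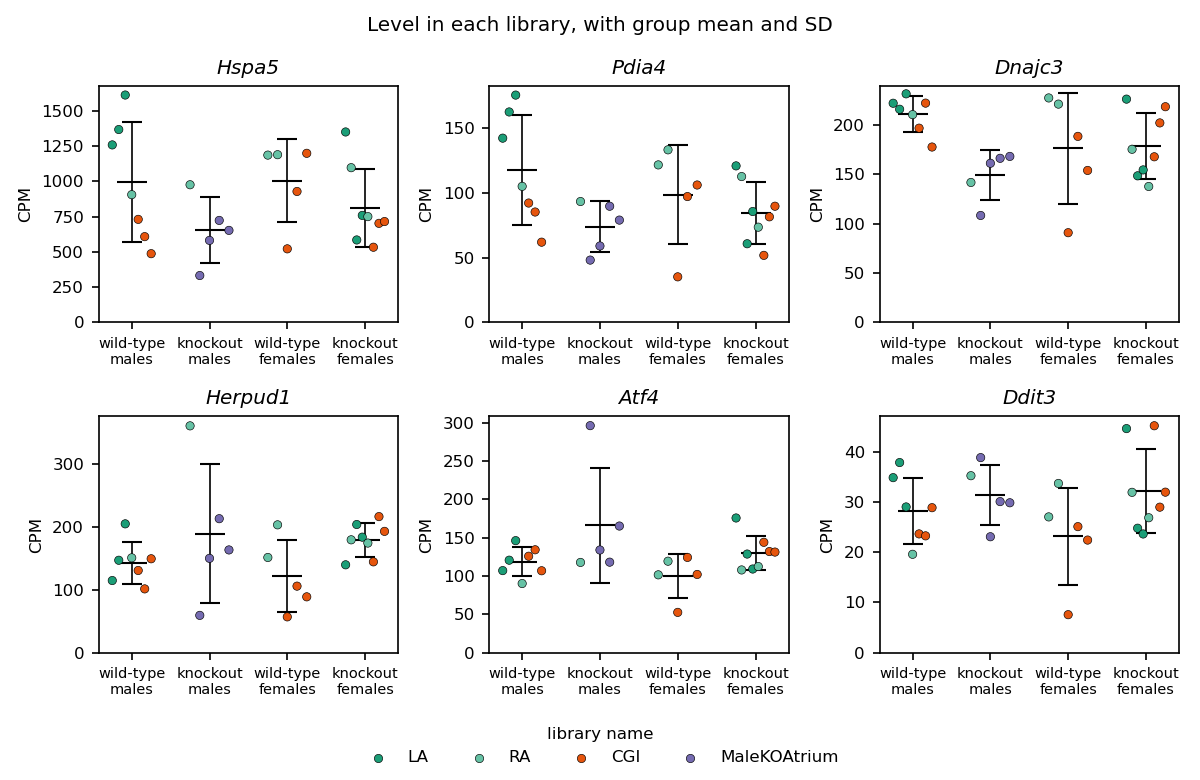
Level (CPM) in each library for 6 genes, 1 panel a gene, with groups on the horizontal axis, points coloured by library name, and a black bar with whiskers for the group mean and SD. The 5 knockout males lie below the 7 wild-type males for Dnajc3 and overlap them in the other panels, and 3 LA libraries form the top of the wild-type males for Hspa5 and Pdia4.

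Of the isomerases, Pdia6 and Pdia4 were lower in knockout males at an unadjusted p under 0.05, without passing the test. Pdia6 was at 210.2, 302 and 420.5 CPM (lowest, median, highest) in wild-type males, and at 283 CPM in KM13, 122 in KM01, 175 in KM03, 230.1 in KM05 and 205 in KM07. All 5 knockouts were below the wild-type median, and 2 of them lay within the wild-type range. On the log2 scale it was lower by -0.71 ± 0.23 in males (limma adjusted p = 0.249) and -0.05 ± 0.25 in females, where the ranges were 105 to 374 CPM in wild type and 189 to 368 CPM in knockouts. Without the LA libraries the male difference was -0.45.

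Pdia4 was at 62.0, 105 and 176 CPM (lowest, median, highest) in wild-type males, and at 93.4 CPM in KM13, 48.1 in KM01, 59.0 in KM03, 89.7 in KM05 and 79.0 in KM07. In wild-type females it was at 122 CPM in WF8, 133 in WF9, 35.2 in WF10, 97.2 in WF11 and 106 in WF12, and in knockout females at 51.8, 83.6 and 121 CPM. The genotypes overlapped in both sexes. The log2 difference was -0.33 ± 0.22 over both sexes (limma adjusted p = 0.981) and -0.63 ± 0.26 in males (0.363), and -0.24 in males without the LA libraries. The other 4 genes of this role were closer to 0 in males: Pdia3 at -0.24 ± 0.19, P4hb at -0.04 ± 0.17, the oxidase gene Ero1l at 0.03 ± 0.19 and the cyclophilin gene Ppib at 0.01 ± 0.15. None of these 4 had an unadjusted p under 0.05 in females either, where they ran from -0.05 to 0.26.

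Of the sensors and transcription factors none was called, and Atf4 and Ddit3 were above 0 in knockouts of both sexes. Ddit3, the gene of the stress factor CHOP, overlaps a second gene of the same symbol in GENCODE M21, and the sources used here do not say how reads in both were counted. It was at 27.1 CPM in WF8, 33.7 in WF9, 7.57 in WF10, 25.1 in WF11 and 22.4 in WF12, and at 23.7, 30.5 and 45.2 CPM (lowest, median, highest) in knockout females. WF10 alone lay below the range of the knockouts by a wide margin. In males the ranges were 19.6 to 37.9 CPM in wild type and 23.1 to 38.9 CPM in knockouts. The log2 difference was 0.46 ± 0.22 over both sexes (unadjusted p = 0.0477, limma adjusted p = 0.981), 0.52 ± 0.28 in females and 0.16 ± 0.19 in males, and 0.23 in females without WF10.

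Atf4, the transcription factor that is translated when PERK slows translation, was at 102 CPM in WF8, 119 in WF9, 52.5 in WF10, 124 in WF11 and 102 in WF12. In knockout females it was at 108, 129.9 and 176 CPM, and the groups overlapped. Wild-type males were at 90.2, 121 and 146 CPM, and knockout males at 118 in KM13, 296 in KM01, 134 in KM03, 118 in KM05 and 165 in KM07. KM01 was the highest library of all and the other knockout males lay near the wild-type range. Its log2 difference was 0.33 ± 0.19 over both sexes, 0.41 ± 0.21 among females and 0.40 ± 0.22 among males (limma adjusted p = 0.981, 0.935 and 0.500). It was 0.22 in females without WF10 and 0.17 in males without KM01.

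Xbp1, whose mRNA is spliced by IRE1, was at 129, 162 and 184 CPM (lowest, median, highest) in wild-type males and at 145 CPM in KM13, 181 in KM01, 128 in KM03, 151 in KM05 and 166 in KM07. The male groups overlapped, with a log2 difference of -0.04 ± 0.15. In wild-type females it was at 163 CPM in WF8, 159 in WF9, 48.1 in WF10, 147 in WF11 and 113 in WF12, and in knockout females at 137, 152 and 194 CPM. The female difference was 0.38 ± 0.24 (limma adjusted p = 0.935), and 0.12 without WF10. Counts per gene do not tell spliced from unspliced Xbp1.

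Atf6, the membrane-bound sensor that is itself cut into a transcription factor, was at 135 CPM in WF8, 216 in WF9, 119.7 in WF10, 142 in WF11 and 144 in WF12, and at 71.1, 132 and 162 CPM in knockout females. The groups overlapped, with a log2 difference of -0.29 ± 0.21 (limma adjusted p = 0.935). The other 3 genes of the role were close to 0 in males: Ern1 at -0.02 ± 0.33, Eif2ak3 at 0.13 ± 0.19 and Trib3, a pseudokinase gene induced by ATF4 and CHOP, at -0.18 ± 0.20. Trib3 was low in every library, at 3.16 to 8.02 CPM.

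Herpud1, a membrane protein that recruits the degradation machinery, had the smallest p of the 32 over both sexes and in females. It was at 152 CPM in WF8, 204 in WF9, 57.0 in WF10, 106 in WF11 and 88.9 in WF12, and at 139.9, 182 and 217 CPM (lowest, median, highest) in knockout females. The 3 CGI wild-type females were below every knockout female, and the 2 LARA wild-type females were within their range. In males it was at 102, 147 and 205 CPM in wild type, and at 361 CPM in KM13, 59.3 in KM01, 150.2 in KM03, 213 in KM05 and 164 in KM07. The knockout males held both the highest and the lowest library of that sex. The log2 difference was 0.73 ± 0.23 over both sexes (unadjusted p = 0.00366, limma adjusted p = 0.981), 0.59 ± 0.23 in females (unadjusted p = 0.0187) and 0.22 ± 0.33 in males. It was 0.60 over both sexes without KM13 and 0.41 in females without WF10.

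The other degradation genes showed no difference past the test. Syvn1, the ubiquitin ligase HRD1, was at 10.7, 15.8 and 24.3 CPM in wild-type males, and at 12.3 CPM in KM13, 18.04 in KM01, 37.2 in KM03, 20.5 in KM05 and 23.3 in KM07. KM03 alone was above the wild-type range, and the log2 difference was 0.41 ± 0.25 in males (limma adjusted p = 0.554), 0.21 without KM03 and -0.42 with a name set term. Sel1l, the partner of HRD1, and the Derlin genes Derl1 and Derl2 were at 0.08 ± 0.18, -0.18 ± 0.21 and -0.02 ± 0.16 in males and at 0.02 ± 0.20, 0.11 ± 0.24 and 0.07 ± 0.18 in females. Of the translocation genes, Ssr1 was at 121, 143 and 151 CPM in wild-type males, and at 125 CPM in KM13, 142 in KM01, 168 in KM03, 158 in KM05 and 172 in KM07. The MaleKOAtrium libraries other than KM01 were above the wild-type range, and the difference was 0.13 ± 0.14, or -0.095 with a name set term. Sec61b, a small subunit of the protein channel, ran from 13.7 CPM in KM03 to 91.8 CPM in KM01 within 1 group, and its male difference was -0.07 ± 0.36.

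**Figure D4:**
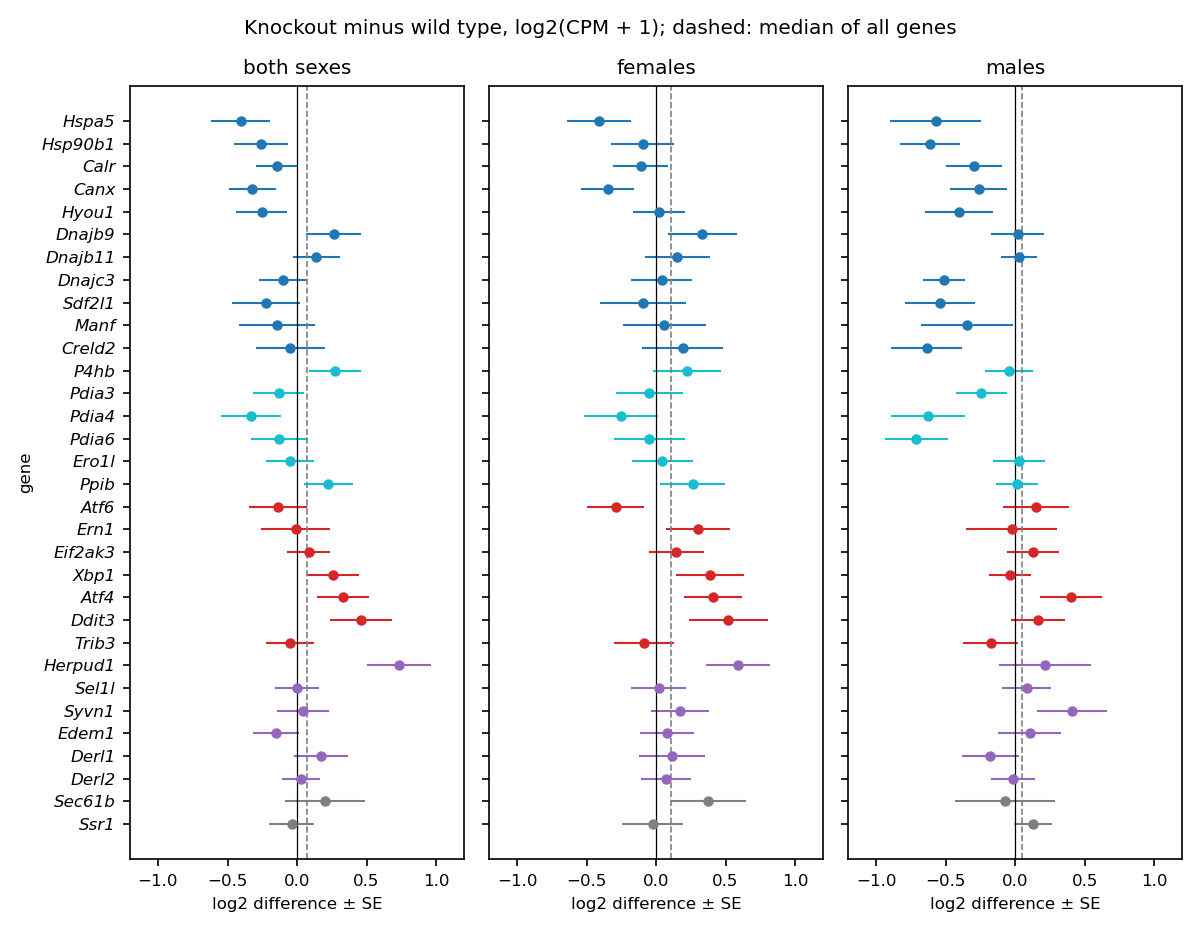
Difference between knockout and wild type in log2(CPM + 1) for each gene (rows, coloured by role) over both sexes and in each sex. Points are limma estimates, bars the SE, and the dashed line the median of all genes. In males 13 of the 17 folding genes lie below 0, and none of the 96 points shown passed the test.

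The difference of the genotype effect between the sexes was tested directly, and 0 of the 32 genes were called (0 genes of the whole table, 0%). At an unadjusted p under 0.05 there were 3 of the 32, all with a higher female difference (9.38%, against 7.39% of all genes in that direction and 9.17% in both). Ern1, the gene of IRE1, had the smallest p, with a log2 of 1.53 ± 0.51 (female minus male effect, limma adjusted p = 0.344). It was at 15.2 CPM in WF8, 14.4 in WF9, 16.5 in WF10, 17.1 in WF11 and 14.3 in WF12 against 12.4, 21.4 and 32.6 CPM in knockout females. In males it was at 12.5, 21.04 and 25.8 CPM in wild type, and at 7.98 CPM in KM13, 12.03 in KM01, 38.7 in KM03, 27.1 in KM05 and 26.1 in KM07. The male side of this test rests on KM13, since the name set is a term in the fit, and KM13 was the lowest of the 25 libraries for Ern1. The same holds for Edem1 (0.92 ± 0.35, adjusted p = 0.416), a lectin-like factor of degradation, which was at 15.6 CPM in KM13 and at 44.1, 44.3, 31.1 and 37.8 CPM in KM01, KM03, KM05 and KM07. Without a set term the value for Edem1 was -0.08. On simulated counts this test recovered 0% of 2-fold differences, so it could show little.

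In females both genotypes occur in both name sets, and most of the 32 genes lay below 0 in LARA and above 0 in CGI, the latter with WF10 in the fit. Within LARA (2 wild-type, 5 knockout) 27 of the 32 were below 0, with a median log2 difference of -0.22 against -0.03 for all genes, of which 44.7% were above 0. Both LARA wild types have RA names, while KF14, KF16 and KF17 have LA names, so genotype and name are partly mixed there. Bmp10 was at 4107 to 6410 CPM in these wild types and at 1.26 to 5009 CPM in these knockouts. Within CGI (3 wild-type, 3 knockout) 29 of the 32 were above 0, with a median of 0.32 against 0.24 for all genes, of which 77% were above 0. WF10 is 1 of the 3 CGI wild types: without it 20 of the 32 and 53.6% of all genes were above 0, with a median of 0.07 against 0.02. Over all females 0 of the 32 had groups that did not overlap (0.0968% of all genes higher and 0.0208% lower). In LARA 6 of the 32 were lower in every knockout female than in every wild-type female (6% of all genes), namely Canx, Sdf2l1, Creld2, Pdia4, Ero1l and Edem1, and 0 were higher (2.5%). In CGI 6 were higher with no overlap (7.2%), namely Dnajb9, Xbp1, Atf4, Ddit3, Herpud1 and Edem1, and 0 lower (1.65%). In the same libraries some summed marker lists did not overlap either. Clock gene markers (8 of 8 measured) were at 156 to 245 CPM in wild type and 630.3 to 842 CPM in knockouts. Mesothelial markers (6 of 6) were at 132 to 452 and 587 to 611 CPM, and erythroid markers (6 of 6) at 1362 to 3536 and 458 to 1260 CPM. Of the clock list, Arntl and Npas2 were lower in knockouts over all females (log2 -1.53 ± 0.40 and -0.78 ± 0.33), and the rest higher. The part of these lists in the differences was not tested.

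Edem1 had no overlap in either set and in opposite directions, narrowly so in LARA. It was at 31.0 CPM in WF8 and 24.4 in WF9 against 16.8 to 24.1 CPM in the 5 LARA knockouts. The gap is small, 24.41 CPM in WF9 against 24.07 in the highest knockout, where 1 read is worth 0.131 to 0.211 CPM. In CGI it was at 21.8 in WF10, 23.1 in WF11 and 21.9 in WF12 against 27.2 in KF19, 35.2 in KF20 and 33.4 in KF21. Herpud1 was at -0.00427 ± 0.20 in LARA and at 1.16 ± 0.34 in CGI, and at 0.90 ± 0.23 in CGI without WF10. A test of the set difference of the genotype effect was added after these values were seen. It called 0 of the 32 (0.0208% of all genes, by limma), and 6 had an unadjusted p under 0.05, all with the higher difference in CGI (18.8%, against 4.08% of all genes, 3.36% in that direction). On simulated counts this test recovered 0% of 2-fold differences. Herpud1 was at 1.16 ± 0.38 (unadjusted p = 0.00712, adjusted p = 0.898), Dnajb9, an inducible BiP partner, at 1.23 ± 0.42 (0.00948, 0.898) and Edem1 at 0.85 ± 0.35 (0.0247, 0.898). The median of the 32 was 0.54 against 0.27 for all genes, and 0.19 against 0.05 without WF10. In the fit without WF10, 4 of the 32 had an unadjusted p under 0.05, and the share of all genes is not given here. Without the LA libraries the median was 0.48 against 0.26. WF10 had 15.6 CPM of Bmp10, and WF11 and WF12 had 5047 and 669 CPM.

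**Figure D5:**
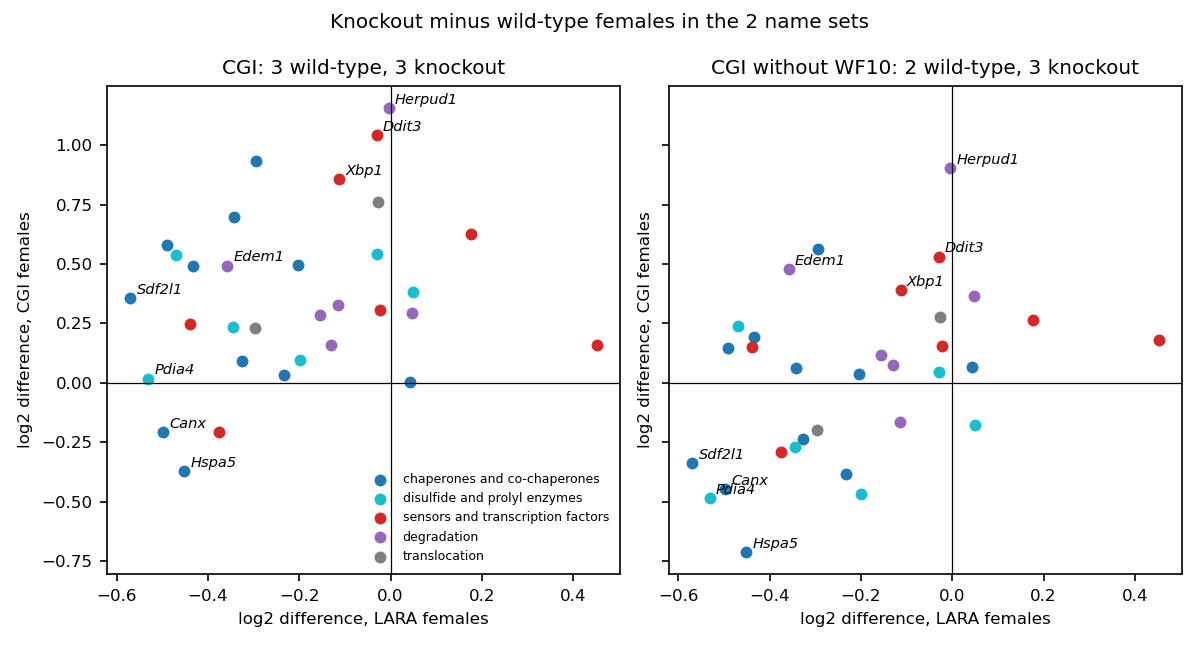
Knockout minus wild-type difference in females (log2) of each of the 32 genes within the LARA set (horizontal) and within the CGI set (vertical), coloured by role, with all CGI libraries on the left and without WF10 on the right. On the left 29 of the 32 points lie above the horizontal line, on the right 20 do, and 27 lie left of the vertical line.

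Between the name sets themselves, 3 of the 32 genes passed the test, and all 3 are folding genes that fell in CGI relative to LARA. The comparison used 21 libraries, with sex and genotype as terms, and called 7.83% of all genes (3.04% lower). Hspa5 was lower by -0.68 ± 0.18 (limma adjusted p = 0.0228), Calr by -0.48 ± 0.13 (0.0279) and Pdia4 by -0.62 ± 0.19 (0.0463). At an unadjusted p under 0.05, 11 of the 32 were lower (34.4%, against 9.7% of all genes) and 0 higher (16.1%), with 25.8% of all genes in both directions, and 9 of the 11 are folding genes. The other 6 folding genes were Manf, Pdia3, Hyou1, Sdf2l1, Creld2 and Hsp90b1, and Sec61b and Herpud1 completed the 11. The median over the 17 folding genes was -0.35, over the 7 stress signalling genes -0.02 and over all genes 0.07.

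Calr shows the pattern. In wild-type males it was at 355 CPM in WM5, 332 in WM6 and 295 in WM7, against 563 in WM3, 551 in WM2, 509 in WM1 and 437 in WM4. In knockout females the 5 LARA libraries were at 292 to 416 CPM and the 3 CGI libraries at 253 to 326 CPM. The sets did not overlap in wild-type males and did in knockout females. In wild-type males 12 of the 32 genes were lower in every CGI than in every LARA library (6.42% of all genes) and 1, Dnajb9, was higher (19.4%). In wild-type females 12 were lower (14.9%) and 0 higher (8.27%), and in knockout females 0 were lower (1.67%) and 3 higher (5.81%), namely Dnajb9, Dnajb11 and Edem1.

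Without the LA libraries 0 of the 32 were called and 14 genes of the table. In that fit of fewer libraries the differences stayed below 0, Hspa5 at -0.52 (limma adjusted p = 0.275), Calr at -0.42 (0.360) and Pdia4 at -0.54 (0.376). Of the libraries left out 1 at a time, WM6 and WM7 also gave 0 of the 32, WM2, WM5 and WF9 gave 1, and WF10 gave 6. Without WF10, 2907 of all 14457 genes were called. For the other libraries left out, the genes called are given only as a range, further below. Over all alternatives the adjusted p of Hspa5 ran from 0.000588 to 0.275, that of Calr from 3.16e-05 to 0.360 and that of Pdia4 from 0.000967 to 0.376. The 3 LA wild-type males make up 3 of the 4 LARA wild-type males, and their Bmp10 was at 0.433 to 1.25 CPM against 3121 to 6179 CPM in the CGI wild-type males. Summed erythroid markers (6 of 6 measured) were at 1561 to 2942 CPM in LARA and at 382 to 488 CPM in CGI wild-type males. In wild-type females the order was the opposite, with 458 to 1271 CPM in LARA and 1362 to 3536 CPM in CGI, and in knockout females the sets overlapped (363 to 2859 and 458 to 1260.1 CPM). Mesothelial markers (6 of 6) were higher in LARA with no overlap in both wild-type sexes. Males spanned 902 to 1108 CPM in LARA against 716 to 826 in CGI. Females spanned 487 to 642 CPM against 132 to 452. In knockout females these markers overlapped. Summed ventricle markers (4 of 5) were higher and cycling markers (5 of 5) lower in LARA wild-type males, both overlapping in females. The ventricle list was split: over the 21 libraries Myl2 and Myl3 were lower in CGI (log2 -2.31 ± 0.90 and -0.88 ± 0.47). Myh7 and Mylk3 were higher there (0.51 ± 0.36 and 0.49 ± 0.20). With ventricle markers and Bmp10 as covariates 1 of the 32 was called, and the share of all genes in that fit is not given here. Of the atrial myocyte markers, Myl4, Myl7, Nppa and Sln were lower in CGI (log2 -0.47 ± 0.19, -0.47 ± 0.19, -0.46 ± 0.14 and -0.42 ± 0.20). Nr2f2 was at 0.16 ± 0.19, and of these markers Nppa alone passed the test (limma adjusted p = 0.0422). The part of the lists other than the ventricle markers and Bmp10 was not tested.

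Another 155 measured genes of the same pathways were read from lists fixed by function. By genotype 0 of them were called, in either sex or over both. Those with the smallest p over both sexes were Ubxn6 and Trib1 among the higher (log2 0.43 ± 0.15 and 0.50 ± 0.19) and Map3k5 and Magt1 among the lower (-0.39 ± 0.21 and -0.29 ± 0.17, limma adjusted p = 0.981 for all 4). In females they were Trib1 and Ppp1r15a, which encodes the phosphatase subunit GADD34 (0.70 ± 0.23 and 0.69 ± 0.25), and Map3k5 and Vcp (-0.41 ± 0.25 and -0.24 ± 0.18, 0.935 for all 4). In males they were Aup1 and Fkbp11 (0.36 ± 0.14 and 0.58 ± 0.22, 0.312 and 0.322) and Tmx1 and Sdf2 (-0.57 ± 0.15 and -0.67 ± 0.18, 0.169 and 0.177). Of the 155, 7 were higher and 12 lower in males at an unadjusted p under 0.05, against 5.36% and 6.47% of all genes.

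For the sex difference 0 of the 155 were called, with Tmx3 and Casp12 (1.02 ± 0.34 and 1.40 ± 0.51) and Gars and Vcp (-0.75 ± 0.34 and -0.76 ± 0.37) of smallest p. For the set difference of the genotype effect in females 0 were called, with Serp1 and Chac1 (1.12 ± 0.40 and 1.14 ± 0.46) and Aars and Wfs1 (-0.30 ± 0.39 and -0.41 ± 0.56) of smallest p. Between the name sets 10 of the 155 were called (6.45%, against 7.83% of all genes). Ppic, a cyclophilin gene, and Ube2g1, a ubiquitin-conjugating enzyme gene, rose in CGI (0.50 ± 0.16 and 0.45 ± 0.12, limma adjusted p = 0.0486 and 0.0254). The 8 that fell included Asns, Cebpb, Psat1 and Phgdh, by -0.91 ± 0.20, -0.85 ± 0.21, -0.71 ± 0.19 and -0.67 ± 0.15. Asns, Psat1 and Phgdh encode enzymes of asparagine and serine synthesis that ATF4 induces. In all, 6 of the 36 measured genes of the list of the PERK and amino acid response fell (16.7%, against 3.04% of all genes) and 0 rose, while Atf4 itself was at -0.00219 ± 0.15. As above, 14 genes of the whole table were called without the LA libraries.

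In the authors' deposited table, which gives the log2 ratio of wild type over knockout and a DESeq2 p-value without a statement on adjustment, 10 of the 32 genes had a p under 0.05 (31.2%, against 7.39% of the 14379 genes with a p there). Of these 10, 8 were higher in wild type in the authors' deposited table (3.08% of its genes), namely Sdf2l1 (log2 0.53, p = 0.00893), Canx (0.25, 0.00954), Hsp90b1 (0.34, 0.0109), Pdia4 (0.45, 0.0131), Dnajc3 (0.23, 0.0188), Pdia6 (0.36, 0.0235), Hspa5 (0.41, 0.0372) and Creld2 (0.37, 0.0377). The same deposited table by the authors has Atf4 (-0.38, p = 0.0282) and Herpud1 (-0.45, 0.0364) higher in knockouts (4.3% of its genes). The sources used here do not say which samples and terms entered it.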

How the data were processed

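Per the submitters' processing notes, the authors used HISAT2, HTSeq, DESeq2 and mm10, with no versions given. The header calls the deposited library values FPKM, but they are CPM: dividing by a single step for each library gave whole reads (100% of values, tolerance 0.001 reads), which also gave the depth. The authors' deposited table also holds a DESeq2 p-value and a log2 ratio of averages. The authors' 2 columns of averages were not used. Of 14467 lines, 10 of 5 doubled symbols were left out. CPM + 1 was log2 transformed and fitted over all genes with limma 3.58.1 in R 4.3.3 (eBayes with trend). At least 1 CPM in 5 libraries was asked for, which removed 0 genes. Terms were sex and name set over both sexes, name set in females and none in males. The design had foreseen FPKM, and the same test was kept for CPM. For the doubled symbols the 4 MaleKOAtrium columns repeat their values on both lines, and the sources used here do not say whether these were counted with the annotation of the rest. Whether libraries are separate animals is not stated beyond individual atria, so p-values measure the spread between libraries. Alternatives were edgeR 4.0.16 and DESeq2 1.42.0 on recovered reads, other scalings, terms, filters and pseudocounts, and libraries left out. The procedure was tested on simulated counts with 200 of 14457 genes changed. Members and lists were chosen with earlier results of these data known. Genes with full values are Hspa5, Xbp1, Atf4, Ddit3, called members, and the 3 of smallest p in each direction by genotype (2 for the sex difference and the name sets). Other named members were chosen after their values were seen. Exon lengths and exon overlaps are from GENCODE M21 (GRCm38), promoters from RefSeq (GRCm38.p6).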

Additional observations from a re-analysis of the deposited data

Results flagged for a closer look

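Of 128 groups of values (32 genes in 4 groups of libraries), 12 held a library far from the others by Dixon's test at its 95% critical value, a test that flags about 1 in 20 groups by chance. In KM01, Canx was low at 217 CPM (the next knockout male was at 428), while Manf was high at 136 CPM (next 67.2) and Atf4 at 296 CPM (next 165). In WF10, Sdf2l1 was low at 3.12 CPM (the next wild-type female was at 15.8), Pdia6 at 105 CPM (next 300.1) and Ppib at 20.9 CPM (next 56.8). These are the 2 least deep libraries, with the shares of mitochondrial reads given above.

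The other 6 fell in 6 libraries. Hsp90b1 was high in KF14 at 871 CPM, Ero1l in WM6 at 51.3, Atf6 in WF9 at 216, Edem1 in WF8 at 31.0 and Derl2 in WM7 at 58.7 CPM. Pdia3 was low in KM03 at 328 CPM, the next knockout male being at 406.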

How the results depend on the processing

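Under all alternatives, of which some were added after seeing the data (WF10 and KM01 out, LA libraries out, the set difference in females), 0 of the 32 genes were called by genotype except in males with DESeq2, which called 2 (Dnajc3 and Hsp90b1). Between the sets the 3 calls became 7 with median-ratio scaling, 7 with edgeR, 12 with DESeq2, 1 with ventricle markers and Bmp10 as covariates, 6 without WF10 and KM01, 0 without LA libraries, and 0 to 6 leaving out 1 library. Genes called of the whole table went from 1 over both sexes to 11 (DESeq2), 2 (WF10 and KM01 out) and 1 to 3 (leave-one-out). In females they went from 2 to 21 (CGI alone), 10 (DESeq2), 1 with LARA alone, edgeR, median-ratio scaling, a name prefix term or LA libraries out, and 1 to 2. In males they went from 40 to 411 (DESeq2), 63 (median-ratio scaling), 1 with a name set term or LA libraries out, and 16 to 205, the last without KM13. For the sex difference they went from 0 to 242 (DESeq2), 10 (edgeR), 6 (WF10 and KM01 out), 23 (no set term) and 9 (covariates), and could not be fitted without KM13. For the sets they went from 1132 (693 higher, 439 lower) to 2321 with median-ratio scaling (1079 higher, 1242 lower), 2438 (edgeR), 3035 (DESeq2), 2907 (WF10 and KM01 out), 14 (LA out) and 468 to 2907. For the set difference in females they went from 3 to 18 (DESeq2), 0 (LA out) and 0 to 13, and its median over the 32 genes from 0.54 to 0.17 (DESeq2), 0.16 (edgeR), 0.24 (median-ratio scaling), 0.19 (WF10 and KM01 out) and 0.19 to 0.77.

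The cause of these moves was not tested. Signs that turned: in females in LARA alone, Herpud1 at -0.00427, Ddit3 at -0.030 and Xbp1 at -0.11; in males, Xbp1 at 0.065 (covariates), 0.092 (LA out) and -0.097 to 0.027 (leave-one-out), and Ssr1 at -0.095 and Syvn1 at -0.42 (set term); in the sex difference, Hspa5 at 0.26 and Edem1 at -0.077 (no set term), and Ddit3 at -0.10 (WF10 and KM01 out) and -0.10 to 0.39 (leave-one-out); between sets, Atf4 at 0.091 (WF10 and KM01 out), 0.090 (LA out) and -0.043 to 0.091 (leave-one-out).

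The numbers 1, 3, 5 and 7 occur in both male groups. Deviations of libraries with equal numbers correlated at 0.236, -0.204, 0.246 and 0.0669, and those with unequal numbers at -0.440 to 0.476. With so few pairs this cannot show whether the numbers pair the libraries. With a replicate block 1 gene was called in males, 0 of the 32, and the median of the 32 was -0.0853.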
